A study of Triticum aestivum with 32 samples.

Results

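In the flag leaf of bread wheat, 34 high confidence genes had a mean level well below control when salt, heat and drought were applied together. Under each stress alone and each pair their ratios to control lay between 0.67 and 1.5, a range set by the rule. In 25 of the genes the lowest of these ratios was below 0.75. The 34 were found among 107892 high confidence gene models, of 269428 gene models in all. Levels are in TPM, a unit that divides reads by transcript length and scales every library to the same total. The TPM of all transcripts of a gene were summed, and each group mean plus 1 was divided by the control mean plus 1. The genes were chosen by the group means of these same libraries. A gene was kept when its control mean was at least 5 TPM, its ratio under the triple stress was at most 0.55, and its ratios in the 6 other treatments all lay between 0.67 and 1.5. The rule would have stopped at 150 genes, and 34 met it. The rule used the mean of every group, so differences between groups are given for these genes as descriptions, and the model calls printed for them further on support nothing.

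RNA was sequenced from flag leaves of cultivar Stettler, a Canadian red spring wheat, during grain filling, with 8 groups of 4 libraries that the submitters call independent biological replicates. Plants grew in pots, 8 per treatment, and treatments began at Feekes stage 8, which the submitters give as spike initiation. Control, drought, salt, and salt plus drought plants shared a greenhouse with day and night temperatures of 24 and 18 °C. Heat, heat plus drought, salt plus heat, and triple stress plants stood in a second one, which was warmed to 30 °C between 9 in the morning and 3 in the afternoon. Drought pots were held at 40% of field capacity and the others at 100%, and salt pots received sodium chloride at 20, then 40 and finally 80 mM. Triple stress plants thus had 80 mM salt, 40% of field capacity and 30 °C at midday. Since all heated plants stood in the second greenhouse, heat and greenhouse cannot be told apart.

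The flag leaf is the topmost leaf of a wheat stem and feeds the filling grain with sugars. Heat, drought and salt act on it through partly shared signals, among them abscisic acid, osmotic stress and reactive oxygen, and a combination of stresses can give a leaf response that no single stress gives. Bread wheat carries A, B and D subgenomes, so that most genes have near-identical copies on 3 related chromosomes. The identifiers of the gene models show the chromosome and subgenome. None of the 155467 genes in the reference table used here carried one of the identifiers (0 matches), so no gene name or role is given, and the tissue could not be checked against leaf markers.

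The number of gene models at 1 TPM or more was 44106 to 53532 per library. The 100 gene models of highest mean abundance held 13.6% to 36.1% of all TPM, and this share differed within groups. Control replicate 3 had 33.5% in these genes and the other controls 21.9% to 23.5%. Salt plus heat replicate 3 had the lowest share of all, 13.6%, against 17.3% to 24.2% in the rest of its group. The triple stress libraries had 17.4%, 20.6%, 21.8% and 24.2%. Salt replicate 3 gave 21.6% of its TPM to low confidence gene models, while such models took 9.24% to 9.83% in the other 3 libraries of that group. Low confidence models do not enter the 34 genes, but a larger share for them lowers the TPM of all others in that library.

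Genes lowered by the triple stress were seldom lowered by it alone. Of 21441 high confidence gene models with a control mean of at least 5 TPM, 1134 (5.29%) had a triple stress ratio of at most 0.55. In 1095 of these at least 1 other treatment also had a ratio below 0.67, most often salt plus heat (791), salt (773), salt plus drought (750), heat plus drought (727) or drought (721), and less often heat (401). In 163 genes all 6 other treatments were below 0.67. The 34 genes make up 3.00% of the 1134, and another 79 genes missed by 1 treatment.

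**Figure D1:**
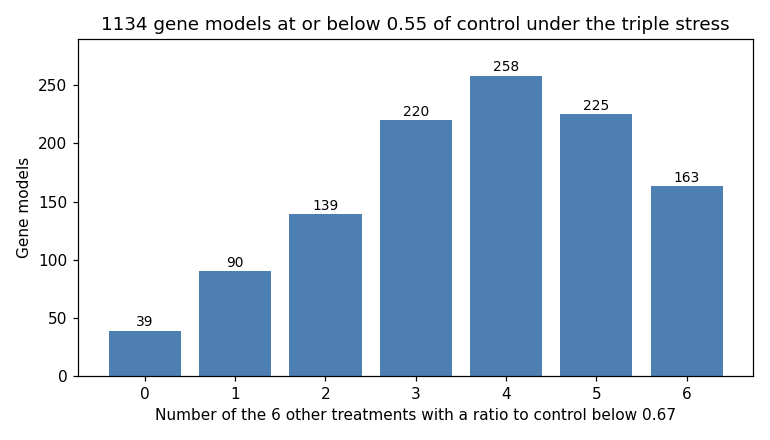
Bars count the 1134 gene models with a triple stress ratio to control of at most 0.55 by the number of the 6 other treatments (x axis) in which their ratio was below 0.67. The bar at 4 treatments is the tallest with 258 genes, and the bar at 0 holds 39 genes, of which 34 also had no ratio above 1.5.

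The same rule with another treatment in the place of the triple stress found 28 genes lowered only by drought, 23 by heat, 13 by salt plus heat, 10 by heat plus drought, 8 by salt and 0 by salt plus drought. As a share of all genes at or below 0.55 in the treatment, these came to 5.69% for heat, 3.64% for drought, 3.00% for the triple stress, 1.70% for salt plus heat, 1.65% for heat plus drought, 1.13% for salt and 0% for salt plus drought. In the opposite direction, the mirrored rule (a ratio of at least 1.82) found 55 genes raised only by the triple stress and 138 raised only by salt plus heat. The number lowered only by the triple stress was therefore close to that for drought alone, and no test of these counts was made.

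Control means of the 34 genes ran from 5.28 to 380 TPM with a median of 15.5 TPM, and triple stress means from 2.21 to 186 TPM with a median of 6.88 TPM. Their ratios under the triple stress ran from 0.337 to 0.549 with a median of 0.524, where the median of all 21441 genes was 1.07. In bulk tissue, less RNA per cell and fewer cells of a type that expresses a gene cannot be told apart. The rule leaves room from 0.67 to 1.5, and the medians of the genes lay below 1 in all 6 treatments. Median ratios were 0.862 under drought, 0.932 under heat, 0.808 under salt, 0.813 under heat plus drought, 0.786 under salt plus drought and 0.796 under salt plus heat. Under salt 31 of the 34 genes were below 1 (48.4% of the 21441 genes), under salt plus drought 30 (34.5%), under salt plus heat 28 (34.2%) and under heat plus drought 27 (46.7%). Drought had 24 (80.5%) and heat 23 (70.9%). All these ratios share the 4 control libraries.

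In 25 of the 34 genes the lowest of the 6 other ratios was below 0.75, and in 11 genes all 6 were below 1. The treatment next lowest to the triple stress was drought or salt plus heat in 8 genes each, salt in 7, heat plus drought or salt plus drought in 4 each, and heat in 3. A narrower window, from 0.8 to its reciprocal, left 2 genes, TraesCS4B02G014300 and TraesCS5D02G413000.

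**Figure D2:**
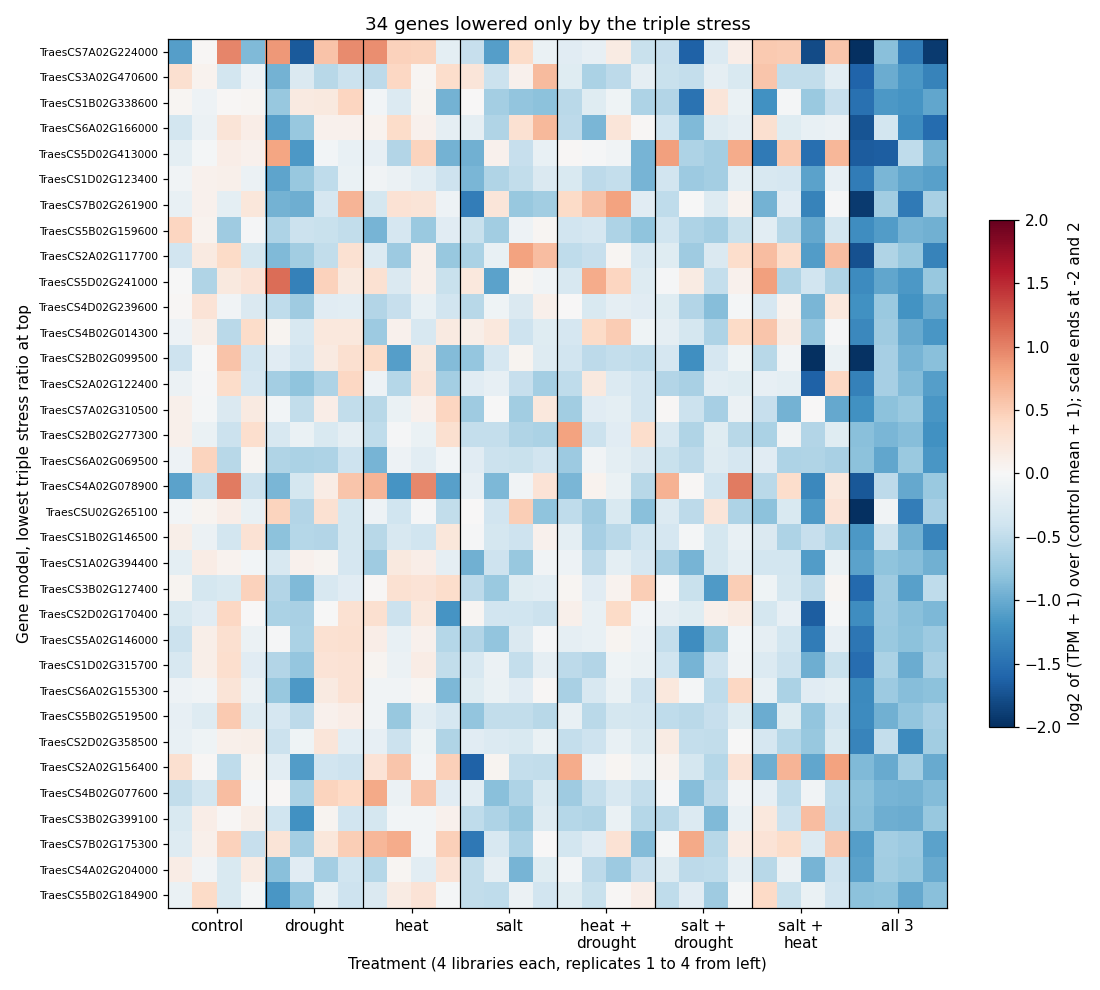
Each row is one of the 34 genes and each column one of the 32 libraries, coloured by the log2 of TPM plus 1 over the control mean plus 1 (blue below control, red above). The 4 triple stress columns are blue nearly throughout, and several genes are as blue in salt plus heat replicate 3 or in drought replicates 1 and 2.

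Library by library, the median ratio of the 34 genes to the control mean was 0.411, 0.599, 0.518 and 0.513 in triple stress replicates 1 to 4. Salt plus heat replicate 3 stood at 0.555, inside that range, while the other salt plus heat libraries stood at 0.825 to 0.894. Drought replicates 1 and 2 stood at 0.687 and 0.641 and drought replicates 3 and 4 at 1.04 and 0.982. Single libraries of other treatments thus came close to the triple stress level although their group means did not. In salt plus heat replicate 3, 17 of the 34 genes were at or below 0.55 of the control mean, against 29, 12, 21 and 21 in the triple stress libraries. The low salt plus heat library was also the one with the smallest share of TPM in the 100 most abundant genes, 13.6%, and triple stress replicate 1, the lowest of its group in 27 of the 34 genes, had the smallest share of its group, 17.4%. Across all 21441 genes the medians went the other way, at 1.15 in salt plus heat replicate 3 and 1.12 in triple stress replicate 1. The part of this share in the result was not tested. Salt plus heat replicate 3, triple stress replicate 1 and drought replicate 2 carry number 4 in their sample titles. So do heat replicate 4 and heat plus drought replicate 2. By median log2 deviation of the 34 genes from the group mean, all were lowest in their groups (-0.468, -0.302, -0.357, -0.165 and -0.0704). The last of them was only just lowest, with heat plus drought replicate 1 at -0.0661. Control replicate 3, also number 4, was the highest control (0.098). Number 4 was picked out after these values were seen. Libraries with number 8 were the highest of their groups under drought, salt, salt plus drought and salt plus heat (0.253, 0.192, 0.298 and 0.200). They were not the highest in control or heat plus drought (0.0318 and -0.0378). The labels do not explain the title numbers, and their part was not tested.

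**Figure D3:**
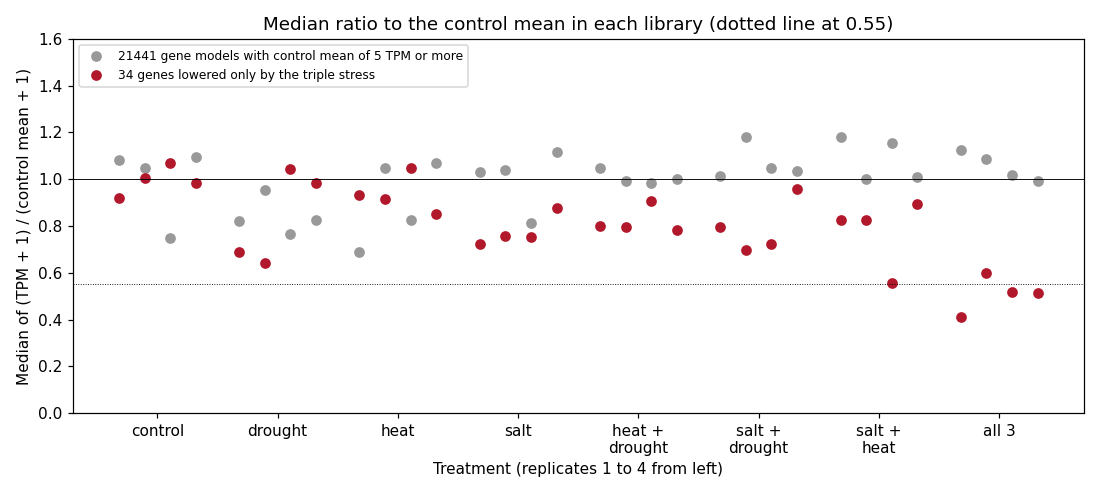
Points give the median over genes of TPM plus 1 divided by the control mean plus 1 in each of the 32 libraries, red for the 34 genes and grey for the 21441 gene models with a control mean of at least 5 TPM. The red points of the triple stress lie at 0.411 to 0.599 and that of salt plus heat replicate 3 at 0.555, while the grey points of these libraries lie at 0.994 to 1.15.

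The 4 triple stress libraries were all below the 4 controls in 30 of the 34 genes (8.41% of the 21441 genes), a separation that the rule favours by construction. They were below all 28 other libraries in 2 genes (0.0326%, 7 genes of 21441). The first of the 2, TraesCS3A02G470600 on chromosome 3A, held 25.7, 21.4, 15.5 and 18.8 TPM in control replicates 1 to 4 and 6.0, 9.76, 8.66 and 7.42 TPM under the triple stress. Its lowest other library was drought replicate 1 with 10.1 TPM, and its group means in the pairs were 15.4 TPM (heat plus drought), 15.8 TPM (salt plus drought) and 19.0 TPM (salt plus heat). The second, TraesCS2B02G277300 on 2B, held 42.4, 35.9, 29.0 and 49.7 TPM in control and 21.6, 20.4, 21.2 and 16.4 TPM under the triple stress. Its lowest other libraries lay just above, at 25.02 TPM in salt plus heat replicate 1 and 25.06 TPM in salt replicate 4. In the other 32 genes at least 1 library of another group was below the highest triple stress library, most often salt plus heat replicate 3 (22 genes), drought replicate 2 (15) and salt plus drought replicate 2 (12).

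The gene with the lowest ratio was also among the most variable. TraesCS7A02G224000, on 7A, held 9.01, 20.9, 41.6 and 10.7 TPM in control and 2.09, 11.1, 7.17 and 4.72 TPM under the triple stress, a ratio of 0.337. Control and triple stress libraries overlapped, and without control replicate 3 the ratio was 0.499. Under drought alone it held 38.3, 5.76, 31.1 and 40.7 TPM, and under salt plus heat 29.9, 29.6, 5.25 and 30.7 TPM, so that 1 library in each of these groups was as low as the triple stress.

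In 9 genes no other ratio was under 0.75. The most abundant of all 34, TraesCS4B02G014300 on 4B, held 353, 414, 262 and 491 TPM in control and 154, 231, 189 and 170 TPM under the triple stress, and the groups did not overlap. Its means in the other 6 treatments were 342 to 423 TPM, ratios of 0.899 to 1.11. Salt plus heat replicate 3 (219 TPM) and heat replicate 1 (229 TPM) were the 2 libraries of other groups below its highest triple stress library. TraesCS5D02G413000, on 5D, held 20.0, 22.5, 25.4 and 24.4 TPM in control and 6.59, 6.71, 16.0 and 11.6 TPM under the triple stress. Its spread in the pairs was wide, with 41.3, 14.8, 14.0 and 39.4 TPM under salt plus drought and 8.08, 33.6, 7.47 and 37.1 TPM under salt plus heat. A mean near control hid libraries far above and far below it in both pairs.

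TraesCS2A02G117700, on 2A, was next in abundance, with 158, 234, 269 and 162 TPM in control and 60.5, 136, 121 and 80.8 TPM under the triple stress. Its means under salt and under salt plus heat were above control, 249 ± 107 and 247 ± 105 TPM (SD, n = 4), and its means under drought and heat below, 159 ± 64.6 and 158 ± 46.5 TPM (SD, n = 4). TraesCS5D02G241000, on 5D, held 5.69, 3.45, 6.76 and 7.15 TPM in control and 1.84, 2.30, 2.06 and 3.00 TPM under the triple stress. No other treatment had a ratio under 0.905 for it, the highest such lower limit among the 34 genes. Drought ranged from 1.65 to 13.7 TPM in single libraries.

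TraesCS4D02G239600, on 4D, was steadier, with 14.3, 17.3, 13.4 and 11.3 TPM in control and 5.50, 8.00, 5.54 and 6.46 TPM under the triple stress, and all other group means between 10.4 and 12.4 TPM. TraesCS6A02G166000, on 6A, held 7.53, 9.19, 12.2 and 11.1 TPM in control and 2.32, 7.55, 3.66 and 2.79 TPM under the triple stress, so that the highest triple stress library was level with the lowest control. TraesCS2A02G122400 and TraesCS6A02G155300 held 4.61 to 8.13 and 4.86 to 6.61 TPM in control and 1.75 to 3.45 and 1.64 to 2.84 TPM under the triple stress. TraesCS4A02G078900, on 4A, owed its control mean to a single library. It held 4.35, 7.06, 22.1 and 7.35 TPM in control and 2.45, 6.83, 4.51 and 5.73 TPM under the triple stress, and its ratio without control replicate 3 was 0.811, outside the rule.

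**Figure D4:**
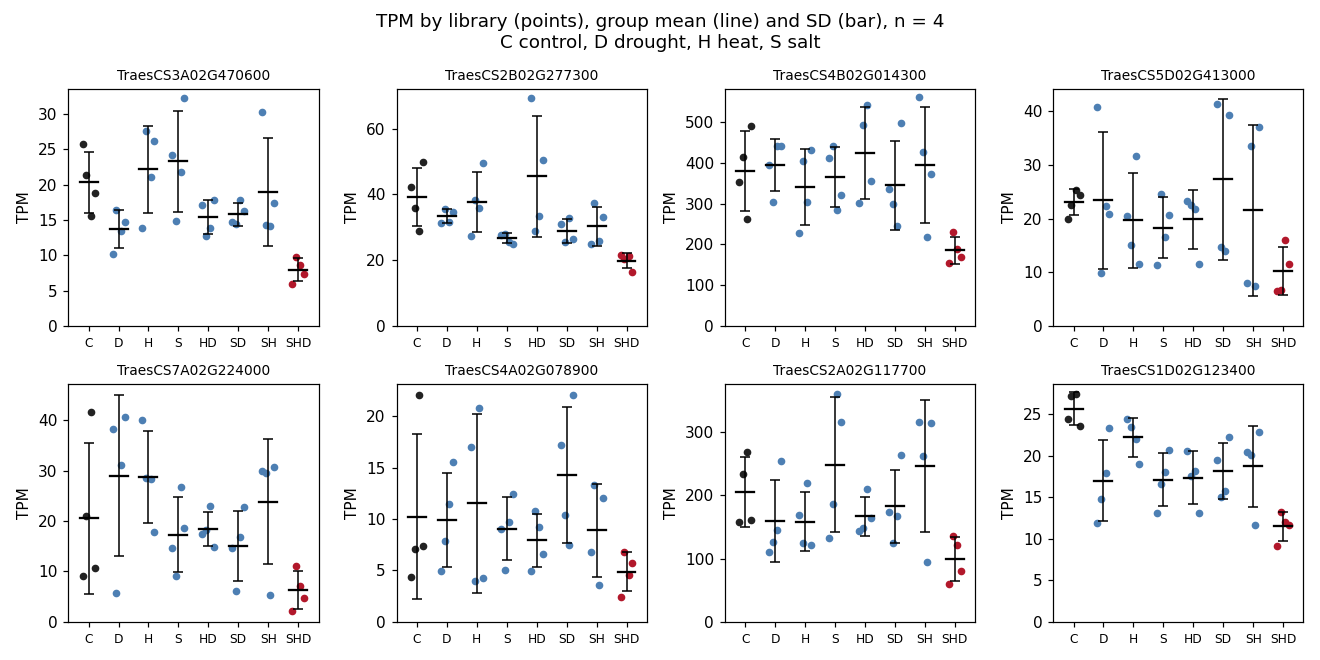
TPM of 8 of the 34 genes in every library by treatment, chosen after their values were seen, with points for libraries, lines for group means and bars for the SD (n = 4). In the upper row the triple stress points sit low, with TraesCS3A02G470600 and TraesCS2B02G277300 below every other library, and in the lower row TraesCS7A02G224000 and TraesCS4A02G078900 have 1 control library far above the rest, at 41.6 and 22.1 TPM.

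Drought was the next lowest treatment in 8 genes, among them TraesCS3A02G470600 and TraesCS4D02G239600. TraesCS1D02G123400, on 1D, was one of the most even, with 24.4, 27.2, 27.5 and 23.5 TPM in control and 9.12, 13.2, 12.01 and 11.6 TPM under the triple stress. Drought (17.0 ± 4.87 TPM), salt (17.1 ± 3.18 TPM) and heat plus drought (17.4 ± 3.15 TPM, all SD, n = 4) lay between, with ratios of 0.674, 0.678 and 0.688 at the edge of the rule. TraesCS6A02G069500 went from 12.3 to 25.6 TPM in control to 7.72 to 10.7 TPM under the triple stress, with drought at 12.3 ± 0.981 TPM (SD, n = 4). In TraesCS1B02G146500 the control libraries held 5.53 to 9.33 TPM, the drought libraries 3.79 to 5.60 TPM and the triple stress libraries 2.39 to 5.24 TPM, so drought and triple stress overlapped. TraesCS3B02G127400 held 4.07 to 7.94 TPM in control and 1.2 to 3.58 TPM under the triple stress, and heat alone was above control with a mean of 6.69 TPM. TraesCS4A02G204000 and TraesCS5B02G184900, the last 2 in the list, had ratios of 0.546 and 0.549 under the triple stress and of 0.700 and 0.6701 under drought.

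Salt, or salt with heat, was next lowest in 15 genes. TraesCS1A02G394400, on 1A, held 35.9, 46.0, 43.5 and 39.6 TPM in control and 19.2, 23.1, 22.5 and 20.6 TPM under the triple stress. Its salt libraries ran from 20.8 to 39.1 TPM and its salt plus heat libraries from 18.5 to 37.5 TPM, and both reached into the triple stress range. TraesCS3B02G399100, on 3B, held 34.8 to 47.4 TPM in control and 23.8, 21.6, 21.3 and 25.1 TPM under the triple stress, with salt at 29.9 ± 4.70 TPM and salt plus heat at 44.7 ± 17.3 TPM (SD, n = 4). TraesCS2A02G156400 had 15.4 to 28.1 TPM in control and 10.6 to 13.6 TPM under the triple stress. Its salt plus heat libraries split into 10.9 and 10.4 TPM in replicates 1 and 3 and 36.4 and 39.9 TPM in replicates 2 and 4. TraesCS7B02G175300 stood above control under heat (24.2 ± 5.64 against 17.0 ± 5.13 TPM) and at 8.77 ± 1.51 TPM under the triple stress (SD, n = 4).

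TraesCS1B02G338600 had tight controls, at 8.61, 7.69, 8.52 and 8.59 TPM, and held 2.32, 3.21, 3.11 and 3.53 TPM under the triple stress. Its salt plus heat mean was 5.37 ± 2.12 TPM (SD, n = 4). TraesCS7B02G261900 held 11.7 to 16.0 TPM in control, 2.87 to 8.31 TPM under the triple stress, and 11.5 to 24.5 TPM under heat plus drought. TraesCS2B02G099500, another abundant gene, held 95.8, 127, 189 and 97.2 TPM in control and 31.5, 79.8, 66.5 and 71.3 TPM under the triple stress, but 25.2 TPM in salt plus heat replicate 3. Thus 1 library without drought was lower than all 4 with the triple stress. TraesCS7A02G310500 was among the least abundant, with 4.15 to 6.09 TPM in control and 1.72 to 2.74 TPM under the triple stress. TraesCS2D02G170400, TraesCS1D02G315700, TraesCS5B02G519500 and TraesCS2D02G358500 had ratios of 0.532, 0.534, 0.535 and 0.538. Of these, TraesCS2D02G170400 held 5.06 TPM in salt plus heat replicate 3, less than the 7.04 TPM of its lowest triple stress library.

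Among the remaining genes TraesCS5A02G146000 had a control mean of 52.6 ± 11.8 TPM and a triple stress mean of 27.6 ± 6.05 TPM (SD, n = 4), with salt plus drought between them at 35.0 ± 12.2 TPM. TraesCS5B02G159600 held 14.7, 11.2, 6.09 and 10.4 TPM in control and 3.88 to 5.08 TPM under the triple stress. Its 6 other means, 7.01 to 8.60 TPM, were all below the control mean of 10.6 TPM, with ratios of 0.691 to 0.828. TraesCS4B02G077600 was tight under the triple stress, at 6.76 to 7.49 TPM, but its control mean of 14.0 ± 5.63 TPM (SD, n = 4) included 22.0 TPM in replicate 3. TraesCSU02G265100, the one gene with no chromosome assigned, was listed at 0 in triple stress replicate 1 and held 6.0, 1.83 and 3.66 TPM in the others, against 5.66 to 7.06 TPM in control. Its triple stress libraries overlapped with the controls.

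At the end of the list the last 3 genes inside had ratios of 0.543, 0.546 and 0.549, and the first 3 outside, TraesCS7D02G119700, TraesCS3A02G200800 and TraesCS2B02G556600, had 0.558, 0.561 and 0.562. A limit of 0.6 in place of 0.55 would have admitted 38 more genes. On the other side of the rule, TraesCS4D02G094400, TraesCS1A02G289600 and TraesCS1B02G254100 had triple stress ratios of 0.513, 0.468 and 0.539 and missed by a single ratio of 0.665 (salt plus drought), 0.663 (drought) and 0.661 (salt).

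A model of log2(TPM + 1) with 8 group means was fitted by limma to all 60684 gene models that reached 1 TPM in at least 4 libraries, with p-values adjusted over all of them and a threshold of 0.05. All 34 genes were tested. Against control, 27 were called lower under the triple stress (3.96% of all genes tested), a contrast that chose them, and the median log2 change was -0.94 against 0.17 for all genes. Without triple stress replicate 1 the 27 became 17, and calls in either direction over all genes tested fell from 8275 to 4825. In the 6 other treatments against control 0 of the 34 were called in either direction, where 1.33% of all genes were called under drought, 1.21% under heat, 1.46% under salt, 2.58% under heat plus drought, 1.79% under salt plus drought and 9.51% under salt plus heat. The rule kept these differences small, and after median-of-ratios scaling, which sets each library by the median ratio of its genes, 9 such calls were made, after quantile normalisation 6, and without control replicate 3 in TPM as deposited 7. The shares of all genes called under those settings are not given, so nothing is read from these counts.

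Whether the triple stress level differed from that of each pair was put to the same model. Against heat plus drought 5 of the 34 were called lower (0.463% of all genes), namely TraesCS2B02G277300, TraesCS7B02G261900, TraesCS4B02G014300, TraesCS4D02G239600 and TraesCS3B02G127400. Against salt plus drought 2 were called (0.234%), TraesCS1B02G146500 and TraesCS2D02G358500, and against salt plus heat 1 (0.122%), TraesCS3A02G470600. No gene was called against all 3 pairs (0 of 34). At an unadjusted p under 0.05, 27, 29 and 21 of the 34 were lower than heat plus drought, salt plus drought and salt plus heat (4.57%, 4.41% and 6.46% of all genes), and 18 were lower than all 3. The rule fixed the direction, since it set the triple stress mean below each pair mean in the same libraries (34 of 34 genes in each comparison), so nothing is read from these counts. Title numbers are spread unevenly over the groups, so using them as a block costs precision, which cannot be told apart from a block effect. With the numbers in the titles as a block the 8 calls became 0, and with no filter on low genes 1. After median-of-ratios scaling or quantile normalisation they became 12. They became 13 without salt plus heat replicate 3, 1 without triple stress replicate 1 or 3, 2 without heat plus drought replicate 2 or 3, and 3 without heat plus drought replicate 1 or 4 or triple stress replicate 4. They became 4 without salt plus heat replicate 4. Without control replicate 1 or 2, heat replicate 2 or 3, or salt replicate 1 they became 5. The same count came without salt plus drought replicate 1 or salt plus heat replicate 2. The shares of all genes called below the pairs under these settings are not given. Nothing about the 34 genes is therefore read from these changes.

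The three-way term asks whether the triple stress departs from what the single stresses and pairs add up to on the log2 scale. It was called negative in 0 of the 34 genes by limma (0.267% of all genes), with 11 at an unadjusted p under 0.05 (32.4%, and 18.7% of all genes). The term is built from group means that the rule used. The coefficient was below 0 in 33 genes, with a median of -0.92 against -0.42 for all genes tested. Without control replicate 3 TraesCS6A02G069500 was called (log2 -1.10, adjusted p = 0.0452, limma). The name of the set thus rests on group means. With all libraries, no test showed for any of the 34 that its triple stress level departs from what the other treatments add up to. The term combines 8 group means, and its standard error ran from 0.361 to 1.12 log2 in the 34 genes. A count of 0 calls therefore leaves room for departures.

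The same ratios were also taken with 1 library at a time kept from the rule. When the rule was applied without 1 triple stress library, 28, 43, 35 and 36 genes were chosen, and the left-out library had a ratio of at most 0.55 in 16, 10, 16 and 17 of them for replicates 1 to 4. That is 57.1%, 23.3%, 45.7% and 47.2%, where the same libraries were at or below 0.55 in 7.08%, 5.49%, 5.57% and 6.86% of all 21441 genes. The left-out triple stress library was below the control mean in every chosen gene in all 4 cases (28 of 28, 43 of 43, 35 of 35 and 36 of 36), against 35.5% to 51.1% of all genes. Without 1 control library, 31, 37, 26 and 30 genes were chosen, and set against the left-out control the triple stress ratio was at most 0.55 in 58.1%, 83.8%, 73.1% and 60.0% of them (5.95%, 6.37%, 4.07% and 6.15% of all genes with a control mean of at least 5 TPM in the other controls). The median ratio in the left-out triple stress library was 0.455, 0.615, 0.555 and 0.563 for replicates 1 to 4. One arm of each of these ratios, the control mean or the triple stress mean, had still chosen the genes, so the values are independent of the rule in the left-out arm only. The triple stress level was least low in replicate 2.

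The share of chosen genes inside the window from 0.67 to 1.5 was below that of all genes in 18 of the 24 left-out libraries of the other treatments. Each ratio here is to the control mean, which had itself chosen the genes as high against the triple stress. A lower ratio than in all genes is thus favoured in any left-out library, and these shares are a description only. With salt plus heat replicate 3 left out, 36 genes were chosen and 9 of them (25%) lay in the window in that library, against 63.7% of all genes, and replicates 1, 2 and 4 gave 71.0%, 79.3% and 75% (69.6%, 85.1% and 86.5% of all genes). Drought libraries split, with 36.1% and 31.4% in replicates 1 and 2 (73% and 90% of all genes) and 81.8% and 96.3% in replicates 3 and 4 (68.8% and 81.6%). Heat replicates 1 to 4 gave 69.4%, 79.4%, 91.2% and 68.8% (51.3%, 86.1%, 80% and 88.8% of all genes). The salt libraries were all below the background, at 57.9%, 62.5%, 61.1% and 70.0% (80.8%, 91.4%, 76.3% and 83.7%). Heat plus drought libraries gave 75.8%, 73.5%, 90.9% and 79.4% (87.9%, 84.7%, 87.6% and 86.9%), and salt plus drought libraries 77.1%, 48.6%, 66.7% and 90.0% (88.7%, 77.7%, 85.7% and 93.1%). The lowest shares were thus in salt plus heat replicate 3, drought replicates 2 and 1 and salt plus drought replicate 2, where fewer than 50% of the chosen genes lay in the window that their group means met. Of the 34 genes, 4 were chosen again in each of the 32 omissions, TraesCS6A02G166000, TraesCS5D02G413000, TraesCS4D02G239600 and TraesCS4B02G014300. Another 3 were chosen again in all 8 omissions of a control or triple stress library, TraesCS2A02G117700, TraesCS5D02G241000 and TraesCS1A02G394400. Without control replicate 3 the rule found 26 genes, of which 12 were among the 34.

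**Figure D5:**
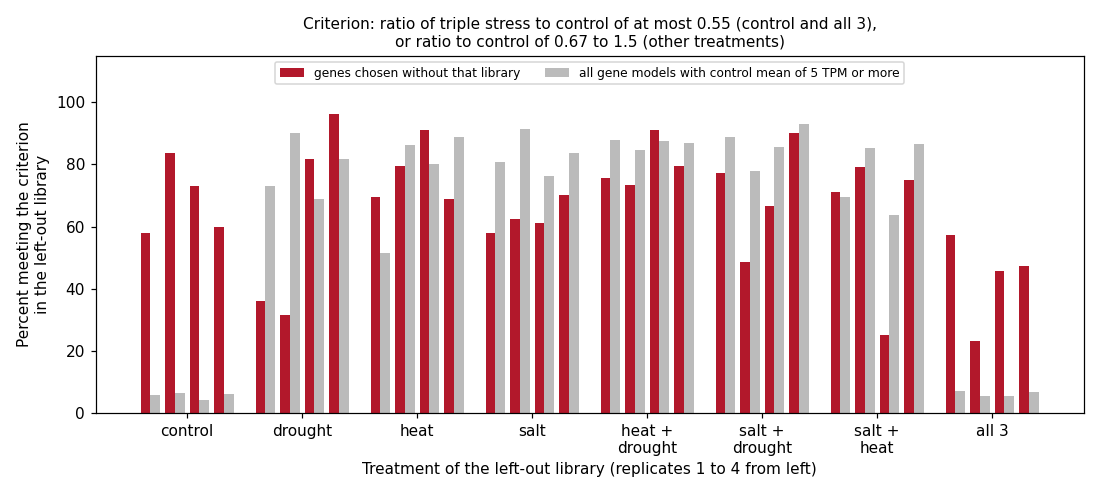
Red bars give the percent of the genes chosen without a library that met the rule's criterion in that library, and grey bars the same for all gene models with a control mean of at least 5 TPM. For the 4 triple stress libraries the red bars stand at 23.3% to 57.1% and the grey at 5.49% to 7.08%, while for salt plus heat replicate 3 the red bar is at 25% and the grey at 63.7%.

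The spread of the 34 genes within groups was not a criterion of the rule, although the same libraries made its means. With group means removed, the median SD of log2(TPM + 1) was 0.373 in the 34 genes and 0.283 in the 21441, and it was 0.281 in the 9080 genes whose control means lay in the middle of theirs, between the quartiles. The 1100 other genes lowered by the triple stress had a median SD of 0.499. Control replicate 3 was the highest control in 16 of the 34 genes (47.1%) but in 9.40% of all 21441, and its median ratio to the mean of the other controls was 1.09 in the 34 and 0.689 in all. Its values are part of the control mean that chose the genes, so a high level in it is favoured by the rule. Control replicate 3 is also the control with the largest share of TPM in the 100 most abundant genes. Across the 32 libraries, with group means removed from both, the correlation of a gene's log2(TPM + 1) with that share had a median of 0.28 in the 34 genes, -0.12 in the 1100 other lowered genes and -0.60 in the 21441. It was above 0 in 24 of the 34 (70.6%), in 40.7% of the 1100 and in 14.3% of the 21441. All values of a library share its scaling, so these correlations are a description only. TraesCS4A02G078900 and TraesCS2B02G099500 had the highest, 0.82 and 0.81, and TraesCS1B02G146500 the lowest, -0.52. The mean pairwise correlation of deviations among the 34 genes was 0.220, against 0.285 among all pairs of the 21441 genes.

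The genes were spread over the genome. Of the 34, 13 lay on the A subgenome (38.2%, and 32.8% of the 21441), 13 on B (38.2%, 32.1%), 7 on D (20.6%, 33.98%) and 1 on no assigned chromosome. No chromosome held more than 3 of them, and 3D, 6B, 6D and 7D held 0. By the order of identifiers along a chromosome, 2 of the 33 placed genes lay in the first or last decile (6.06%, against 13.5% of the placed genes among the 21441). In deciles 2, 3 and 4 lay 5, 7 and 6 of them (15.2%, 21.2% and 18.2%, against 9.22%, 11.3% and 13.0%). These were the fullest deciles, named after the counts were seen, and are a description only. No 2 of the 34 genes lay within 10 gene models of each other (0 pairs). Of their 68 direct neighbours among high confidence genes, 18 had a control mean of at least 5 TPM. None of these neighbours had a triple stress ratio of at most 0.55 (0 of 18), and their median ratio was 0.999 against 1.07 for all genes. With 5.29% of all genes at or below 0.55, a count of 0 of 18 is near the background.

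Of the 34 genes 26 had 1 annotated transcript (76.5%, and 68.7% of the 21441) and 1 had 3 or more (2.94%, 11.5%). How a gene's TPM divide among its transcripts was not used by the rule and could be tested. Across 3548 genes with at least 2 transcripts and a mean of at least 5 TPM, 0.676% changed the share of their leading transcript between control and triple stress by limma, 3 of the 34 were tested and 0 were called, with 0 of the 3 and 368 of all genes at an unadjusted p under 0.05. TraesCS5B02G184900 had 69.2% ± 10.03 of its TPM in its leading transcript in control and 69.0% ± 8.80 under the triple stress (SD, n = 4), a difference of -0.198 percentage points (SE 5.63, limma adjusted p = 0.998). TraesCS1B02G146500 had 72.5% ± 9.06 and 69.8% ± 20.5 (SD, n = 4; -2.64 points, SE 9.83, limma adjusted p = 0.964), and TraesCS7B02G175300 had 88.7% ± 1.76 and 92.4% ± 5.41 (SD, n = 4; 3.75 points, SE 2.56, limma adjusted p = 0.669). The standard errors leave room for shifts of several points. In TraesCS5B02G184900 the leading transcript had a mean of 9.03 TPM in control and 4.59 TPM under the triple stress, and the next one 3.63 and 1.80 TPM.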

How the data were processed

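Flag leaf RNA of 32 libraries, 8 groups of 4, was analysed. The deposited values are TPM per transcript. The authors used STAR for alignment to IWGSC 1.1 and RSEM 1.3.3 for abundance, per the submitters' processing notes, which also name CASAVA and Trimmomatic without a version. The table held 298774 transcripts, summed here to 269428 gene models. Every column matched 1 sample title, and 0 were left over. No 2 libraries held identical values (0 of 496 pairs). TPM keep no depth, so depth is unknown and count models and counting intervals were not used. Reads shared by near-identical subgenome copies are divided by RSEM, which makes the level of a single copy uncertain.

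Ratios used a pseudocount of 1. Log2(TPM + 1) values were fitted with limma 3.58.1 in R 4.3.3 (trend, 24 residual degrees of freedom, two-sided, Benjamini-Hochberg adjustment). This scale understates the change of low genes. Shares of leading transcripts were fitted in percent, for genes with a mean share of 5 to 95%. Tested on simulated data for the triple stress against control over 60684 genes, the model recovered 59 of 100 genes lowered 2-fold and 95 of 100 lowered 4-fold, with 9 calls among the others. The simulation drew noise independently for each gene and library and changed only these genes. In the data 8275 genes were called and deviations were correlated between genes, so these figures may not hold there. Named genes were the 15 lowest ratios, the genes below all 28 other libraries, those at the ends of the rule and the 8 most abundant, and others were added after their values were seen. Members and lists were chosen with earlier results of these data known. Alternatives were other pseudocounts, filters, limits and scalings, blocks, and each library left out in turn.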

Additional observations from a re-analysis of the deposited data

Results flagged for a closer look

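In 280 groups of 4 values (34 genes and their median ratio in 8 treatments), the extreme library was compared with the others by Dixon's ratio at its 95% critical value. There were 18 such values, where chance gives about 1 in 20 groups, or 14. In control replicate 3 there were 3 high values, with TraesCS4A02G078900 at 22.1 TPM (others 4.35 to 7.35), TraesCS6A02G155300 at 6.61 TPM (4.86 to 5.11) and TraesCS5B02G519500 at 35.95 TPM (20.4 to 22.0). Control replicate 2 was low for TraesCS1B02G338600 at 7.69 TPM (8.52 to 8.61). Under drought, replicate 4 was high for TraesCS2A02G122400 at 8.42 TPM (3.02 to 3.61) and TraesCS6A02G069500 at 13.71 TPM (11.6 to 11.9).

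Heat replicate 4 was low for TraesCS6A02G155300 at 2.42 TPM (5.05 to 5.53). Salt replicate 1 was high for TraesCS1B02G338600 at 8.36 TPM (4.28 to 4.82) and TraesCS2D02G170400 at 18.41 TPM (13.0 to 13.5). Under heat plus drought, TraesCS5D02G413000 was low in replicate 4 at 11.65 TPM (21.9 to 23.4), TraesCS2A02G156400 high in replicate 1 at 38.0 TPM (20.4 to 23.1) and TraesCS3B02G399100 high in replicate 3 at 39.29 TPM (28.3 to 29.0). In that last library the median ratio of the 34 genes to the control mean was also high, at 0.908 (0.785 to 0.799 in the others).

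Salt plus heat replicate 3 was low for TraesCS7A02G224000 at 5.25 TPM (29.6 to 30.7), and replicate 1 was high for TraesCS5D02G241000 at 10.91 TPM (3.45 to 4.19) and TraesCS6A02G069500 at 15.75 TPM (11.46 to 11.98). Under the triple stress, TraesCS5A02G146000 was low in replicate 1 at 18.62 TPM (29.4 to 31.2) and TraesCS5B02G184900 low in replicate 3 at 5.91 TPM (6.87 to 7.01).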

How the results depend on the processing

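The choice of the 34 genes depended on the settings. The rule found 52 genes after median-of-ratios scaling (9 of the 34 among them) and 59 after quantile normalisation (14), and 9 genes were found under both and in TPM as deposited. Under every scaling tried all 34 genes stayed at or below 0.55 of control under the triple stress. The genes lost were those with another ratio now below 0.67 (25 and 20 genes). The median triple stress ratio of all genes with a control mean of at least 5 TPM also fell, from 1.07 to 0.931 and 0.977. With the 100 most abundant gene models removed it was 1.02. Staying at or below 0.55 was thus favoured, and nothing is read from it. With the 100 most abundant gene models removed 37 were found (15 shared). A pseudocount of 5 gave 17 (7 shared), group medians 18 (10), a control mean of at least 1 TPM 53, a limit of 0.5 gave 13 and of 0.6 gave 72, and a window from 0.8 to its reciprocal gave 2. Leaving out 1 library gave 26 to 43 genes.

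Calls lower than control under the triple stress numbered 17 to 30 with 1 library left out (27 with all), and calls in either direction over all genes 4825 to 9224 (8275 with all, 5394 among genes reaching 5 TPM in 4 or more libraries). The lowest of these was without triple stress replicate 1, and without control replicate 3 it was 5379. Calls below the pairs were 1 to 13 with 1 library left out (8 with all), 5 with a pseudocount of 5, 1 without a filter and 0 when sample titles gave the block. They were 12 after median-of-ratios scaling, 12 after quantile normalisation, 9 under the 5 TPM filter and 7 with a pseudocount of 0.1. The three-way term gave 0 or 1 calls with 1 library left out. Calls in the 6 other treatments were 0 to 7 with 1 library left out, with 7 without control replicate 3, 2 without salt plus heat replicate 2, and 1 without drought replicate 4, heat replicate 1 or 2 or salt plus heat replicate 4. They were 9 after median-of-ratios scaling, 6 after quantile normalisation, 1 under the 5 TPM filter and 2 when titles gave the block. The shares of all genes called under these settings are not given. No alternative gave a call for the leading transcript shares (0). With the replicate number as a block, 26 of the 34 were called lower than control, 6 calls were made below the pairs, 0 for the three-way term, and 8533 in either direction over all genes. With title numbers as the block, 18 of the 34 were called lower than control and 6261 genes in either direction, and without a filter 22 of the 34. Control and triple stress libraries of the same replicate number, which is not the title number, had deviations that correlated at -0.21 to 0.34. Of the triple stress libraries, 3 of 4 correlated best with the control of their own replicate number. Since not every pair was above 0.1 and the labels give replicate numbers no shared source, these libraries were not taken as pairs. By title, control and triple stress share only number 4, and this check did not cover title numbers. The cause of these changes was not tested. Since the depth is unknown, how far counting error limits the low genes cannot be given.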
